A study of Rattus norvegicus with 10 samples.

Results

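The microglia genes are a list of 31 genes that mark microglia or work in them, and their expression was compared in the cerebral cortex of rats given electroacupuncture (EA) and of control rats. Members were taken from the deposited gene table by symbol, and 30 of the 31 were found among its 32623 genes. Dock2 has no row under that name and was not analysed here. The samples are poly(A) RNA from the cortex of 5 EA rats and 5 control rats, adult male Sprague-Dawley animals. EA rats were needled at the Baihui and Shuigou points of the head and stimulated electrically while bound, whereas the controls were bound equally long without needling. All rats were then anesthetized with pentobarbital and perfused with saline, so both groups share the binding, the anesthesia and the perfusion. Cortex was taken after the stimulation, and the interval is not given in the sources used here. No series of times was sampled. Each library is a piece of whole cortex, so fewer microglia and less RNA per microglial cell cannot be told apart.

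Microglia are the resident macrophages of the brain. At rest they survey the tissue with fine processes, kept alive by signalling through the receptor Csf1r and guided by receptors such as Cx3cr1 and P2ry12. On injury or infection they typically lower these homeostatic genes and raise genes of phagocytosis, complement and antigen handling. The members were therefore read as 4 groups, which are 8 homeostatic genes, 2 transcription factors, 11 genes of activation and phagocytosis, and 9 genes of signalling that microglia share with other leukocytes.

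Levels are given as FPKM (mapped fragments scaled by transcript length and library size), which allows genes of different length to be compared. Fold changes come from edgeR on the deposited estimated counts (quasi-likelihood test, Benjamini-Hochberg adjustment over all genes tested) and are given as log2 of EA over control. Calls required an adjusted p below 0.05 together with a change of more than 1.2 times. Libraries held 47843590 to 60941939 counts in EA and 55223193 to 61707722 in control, and members held from 68 counts (Cd68) in a library upward. Neuron markers summed to an FPKM of 1520 to 2106 in EA and 1751 to 1899 in control. Structural RNA (small nuclear, ribosomal and similar RNA) was high in EA 2 and EA 5, with a summed FPKM of 1218 and 1562, against 378 to 402 in the other EA libraries and 353 to 396 in control.

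None of the 30 microglia genes was called as changed in EA cortex. All 30 passed the expression filter (FPKM reaching 0.5 in 5 or more of the 10 libraries), as did 15169 genes in all, and edgeR called 0.0198% of these. DESeq2, which called 1.11% of all genes, and limma also called 0 of the 30 members. At an unadjusted p under 0.05 lay 1 member, the phagocytic receptor Trem2, and 13.7% of all genes tested did so (6.59% higher and 7.15% lower in EA). The median log2 fold change of the members was -0.04, with 20 of 30 below 0, while the median of all genes tested was -0.0018 and 50.5% of them were below 0. The 95% intervals of 27 members stayed within a 1.5-fold change in either direction, as did those of 76.1% of all genes tested, and all 30 stayed within a 2-fold change, as did 90.1% of all genes. The exceptions at 1.5-fold were Itgam, Ly86 and Cd68.

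**Figure D1:**
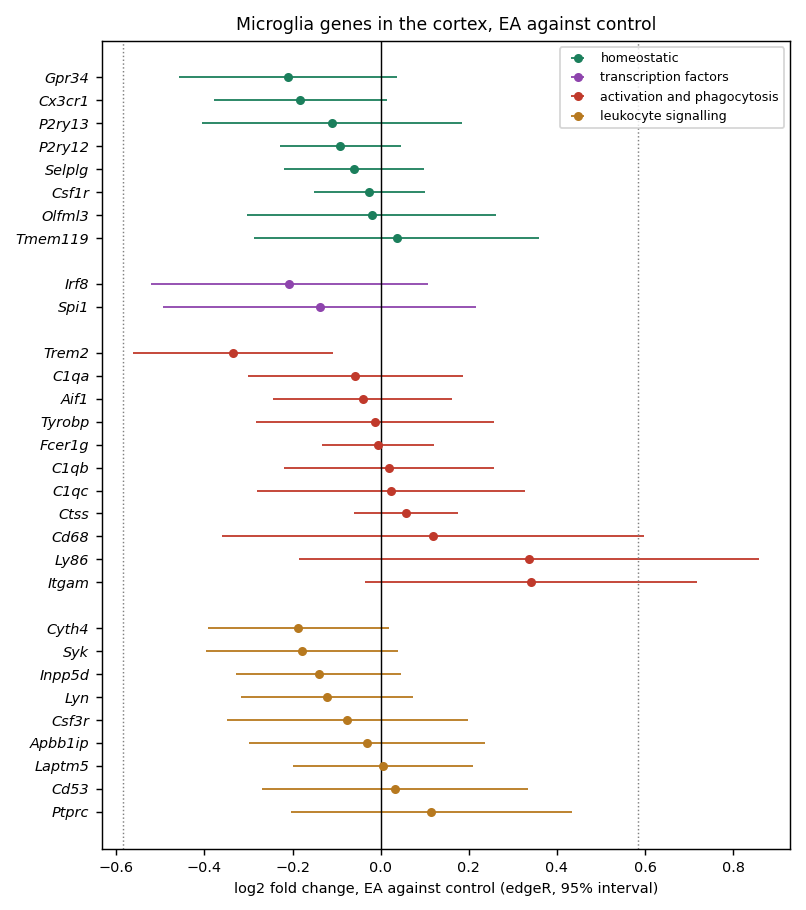
Log2 fold change of each of the 30 microglia genes, EA against control, with its 95% interval from edgeR (n = 5 each), ordered within the 4 groups; the dotted lines mark a 1.5-fold change. The interval of Trem2 (-0.56 to -0.11) is the only one of the 30 that does not reach 0.

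The homeostatic genes lay slightly lower in EA cortex, by differences that did not pass the correction. Of the 8 genes, 7 had log2 fold changes below 0, with a median of -0.08, and 0 were called or lay at an unadjusted p under 0.05 with edgeR. With DESeq2 0 of them were called either. Their summed FPKM was 102 to 112 in EA (median 109) and 111 to 121 in control (median 117), so the groups met at their edges. The mean of this sum was 108 (SD 4.12) in EA and 116 (SD 4.41) in control.

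Cx3cr1, the receptor for the neuronal chemokine Cx3cl1, had FPKM of 13.7, 15.0, 16.8, 17.5 and 18.7 in EA 1 to EA 5, against 16.5, 21.4, 19.3, 18.8 and 18.4 in control 1 to control 5. EA 1 and EA 2 lay below every control, and the other EA libraries fell within the range of the controls. The log2 fold change was -0.18 (standard error, SE, 0.09, adjusted p = 0.394 with edgeR). P2ry12, the ADP receptor that directs microglial processes to sites of damage, had FPKM of 12.6, 11.8, 11.2, 12.7 and 11.8 in EA 1 to EA 5, against 12.95, 13.1, 13.7, 12.5 and 12.8 in control 1 to control 5. Only EA 1 and EA 4 reached into the range of the controls, and P2ry12 had one of the smallest spreads of the list, with a coefficient of variation of 5.39% in EA and 3.37% in control. Its log2 fold change was -0.09 (SE 0.06, adjusted p = 0.555 with edgeR).

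Gpr34, a receptor for lysophosphatidylserine, had FPKM of 10.5, 9.32, 8.11, 11.4 and 11.5 in EA 1 to EA 5, against 14.5, 11.4, 11.5, 10.6 and 11.4 in control 1 to control 5. Control 1 stood above the other controls, EA 2 and EA 3 were the lowest, and the groups overlapped. The log2 fold change was -0.21 (SE 0.11, adjusted p = 0.439 with edgeR).

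Csf1r, the growth factor receptor on which microglial survival rests, had the highest homeostatic level, with FPKM of 32.8, 35.9, 39.3, 35.5 and 34.8 in EA 1 to EA 5, against 35.2, 39.2, 37.4, 38.1 and 35.0 in control 1 to control 5. EA 1 was lowest and EA 3 highest, with the controls between them, and the 95% interval of the log2 fold change (-0.15 to 0.10) was among the narrowest of the list. Tmem119, a membrane protein that separates microglia from other macrophages in the brain, had FPKM of 7.76, 10.7, 12.9, 10.1 and 8.77 in EA 1 to EA 5, against 8.29, 12.2, 10.8, 10.6 and 8.16 in control 1 to control 5. It ranged widely in both groups, and its log2 fold change was 0.04 (SE 0.15).

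The other homeostatic genes were P2ry13, a further ADP receptor, the secreted protein Olfml3, and Selplg, a ligand of selectins. P2ry13 had a log2 fold change of -0.11, Olfml3 of -0.02 and Selplg of -0.06, with standard errors of 0.14, 0.13 and 0.07. P2ry12 and P2ry13 lie next to each other on chromosome 2 (Rnor_6.0, 149441598 to 149444548 and 149430854 to 149432106, both on the minus strand) inside Med12l, which is annotated on the other strand, and Gpr34 overlaps Cask in the same way. The library kit marks strand, but whether strand was used in counting is not given in the sources used here, so reads of the larger gene could be counted in part for these 3 genes.

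**Figure D2:**
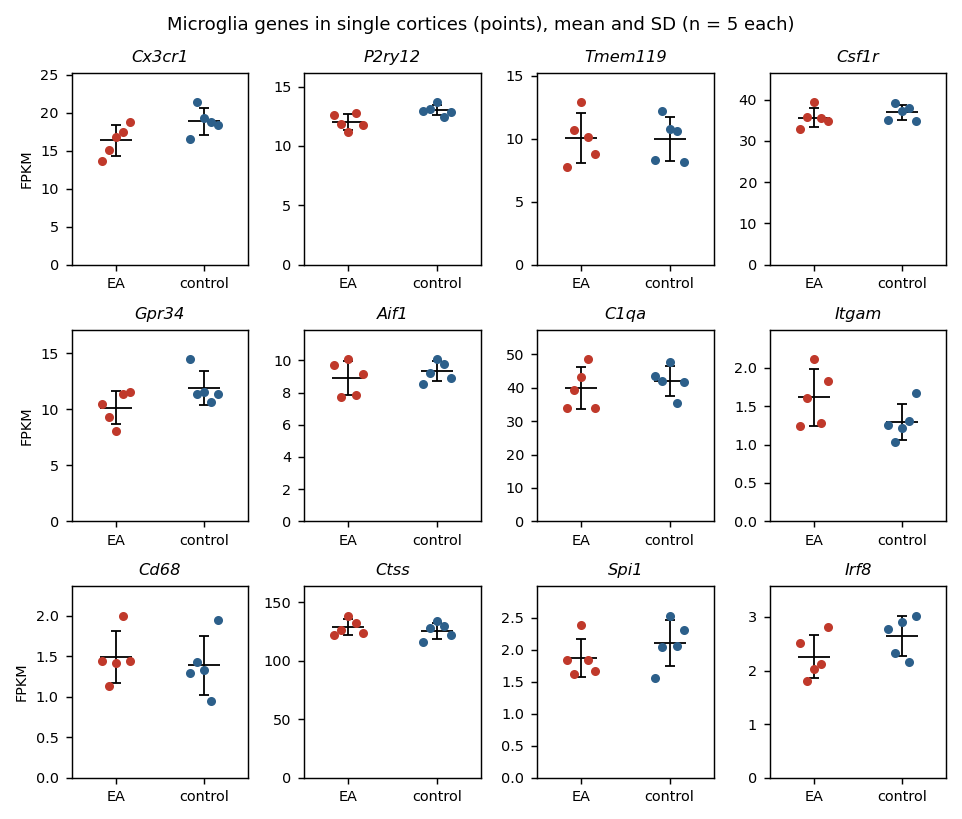
FPKM of 12 microglia genes in single cortices, EA on the left and control on the right (points: libraries, bars: mean and SD, n = 5 each). The points of EA and control overlap in all 12 panels. The lowest value is in a control library for Itgam, Cd68, Ctss and Spi1, and in an EA library for every other gene shown.

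The macrophage transcription factors had log2 fold changes below 0 that did not pass the test. Spi1 encodes PU.1, which sets up the macrophage program, and had FPKM of 1.83, 1.63, 2.39, 1.83 and 1.67 in EA 1 to EA 5, against 1.56, 2.04, 2.53, 2.05 and 2.30 in control 1 to control 5. Irf8, which acts with PU.1 at shared sites, had FPKM of 2.51, 1.81, 2.03, 2.12 and 2.80 in EA 1 to EA 5, against 2.78, 2.32, 2.90, 2.16 and 3.03 in control 1 to control 5. EA and control overlapped for both genes, and control 1 was the lowest of all libraries for Spi1 and EA 2 for Irf8. Their log2 fold changes were -0.14 (SE 0.16, adjusted p = 0.759) for Spi1 and -0.21 (SE 0.14, adjusted p = 0.564) for Irf8, both with edgeR.

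Since PU.1 is itself a member, the promoters of the other members were searched for its core letters GAGGAA on both strands. RefSeq promoters (assembly GRCr8, 250 bases before to 50 after the start of the gene) were found for 20 of the 30 members, and 14 of the 20 (70.0%) held the letters, against 27.6% of all 33469 promoters. The longer form GAGGAAGT, which contains the core, was in 4 of 20 (Cd53, Ctss, Cyth4 and Inpp5d), against 2.42% of all promoters, and the composite motif of PU.1 and IRF factors, whose start can overlap the core, was in 1 of 20 (Cd68), against 2.94%. A match is only a stretch of letters and was not tested as a binding site. The promoters below are shown 5′ to 3′ for the member with the lowest p (Trem2, chr9:20151730-20152029, minus strand), the member with the largest positive fold change (Itgam, chr1:192089342-192089641, plus strand), the member with the highest level (Ctss, chr2:185775146-185775445, plus strand) and a homeostatic gene without a match (Cx3cr1, chr8:128677017-128677316, minus strand). Capitals mark GAGGAA or its reverse complement, which lies 29 bases before the start of Trem2 and 151 and 39 bases before that of Itgam.
Trem2: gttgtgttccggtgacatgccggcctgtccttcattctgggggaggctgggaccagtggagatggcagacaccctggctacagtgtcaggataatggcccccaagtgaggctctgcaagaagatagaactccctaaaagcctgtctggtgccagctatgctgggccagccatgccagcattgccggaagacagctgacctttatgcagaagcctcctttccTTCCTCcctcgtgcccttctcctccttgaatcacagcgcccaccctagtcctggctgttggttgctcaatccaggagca
Itgam: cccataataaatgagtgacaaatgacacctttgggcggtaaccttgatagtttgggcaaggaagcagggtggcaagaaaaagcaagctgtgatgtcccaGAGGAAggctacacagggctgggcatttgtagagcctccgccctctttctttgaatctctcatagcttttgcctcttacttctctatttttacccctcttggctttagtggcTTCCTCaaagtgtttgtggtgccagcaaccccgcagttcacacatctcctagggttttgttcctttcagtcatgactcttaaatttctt
Ctss: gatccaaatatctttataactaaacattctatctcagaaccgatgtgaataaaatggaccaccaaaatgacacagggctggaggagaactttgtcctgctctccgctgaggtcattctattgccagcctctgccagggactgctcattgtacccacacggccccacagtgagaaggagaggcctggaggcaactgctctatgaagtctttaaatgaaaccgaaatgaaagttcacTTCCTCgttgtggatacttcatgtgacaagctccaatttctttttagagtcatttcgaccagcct
Cx3cr1: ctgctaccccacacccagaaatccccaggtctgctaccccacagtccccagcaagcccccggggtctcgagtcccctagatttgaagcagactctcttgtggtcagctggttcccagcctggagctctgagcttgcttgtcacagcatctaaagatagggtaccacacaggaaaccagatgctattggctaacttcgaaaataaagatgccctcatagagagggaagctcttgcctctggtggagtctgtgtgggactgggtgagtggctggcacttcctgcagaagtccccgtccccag

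Trem2 was the member with the lowest p, and its FPKM lay lower in EA cortex by a difference that did not pass the correction. Trem2 is a surface receptor for lipids and lipoproteins that drives phagocytosis and the shift of microglia to a disease-associated state, and the gene lies on chromosome 9 (Rnor_6.0, 14611561 to 14618013, minus strand). It had FPKM of 5.82, 5.62, 6.37, 5.09 and 5.48 in EA 1 to EA 5, against 7.29, 6.97, 8.28, 6.77 and 7.08 in control 1 to control 5. All EA libraries lay below all controls, as they did for 2.25% of all genes tested, and no member had all EA above all control (0.85% of all genes). On CPM (counts scaled by library size and TMM) the groups touched, since EA 3 had 8.03 and control 4 had 7.94, and 1.62% of all genes had all EA below all control on that scale. The log2 fold change was -0.33 (SE 0.10, unadjusted p = 0.0075, adjusted p = 0.223 with edgeR), or 0.793 times control with a 95% interval of 0.678 to 0.928. The difference did not pass the correction with edgeR, with DESeq2 (adjusted p = 0.113) or with limma on log2(FPKM + 0.1) (adjusted p = 0.137). Leaving out single libraries gave log2 fold changes of -0.39 to -0.28, and leaving out EA 2 and EA 5 together gave -0.30 (unadjusted p = 0.0427, adjusted p = 0.561).

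Trem2 signals through the adaptor Tyrobp, whose phosphorylated tail recruits the kinase Syk, which in turn acts on the phospholipase Plcg2, while the phosphatase Inpp5d opposes the pathway. Tyrobp had FPKM of 12.1, 13.1, 17.6, 15.96 and 16.01 in EA 1 to EA 5, against 14.8, 15.4, 18.1, 14.3 and 14.1 in control 1 to control 5. EA and control overlapped, with EA 1 and EA 2 lowest, and the log2 fold change was -0.01 (95% interval -0.28 to 0.26). Syk had FPKM of 2.15, 1.74, 1.67, 1.54 and 1.75 in EA 1 to EA 5, against 1.88, 2.18, 1.94, 1.98 and 2.20 in control 1 to control 5. All EA libraries but EA 1 lay below the controls, and the log2 fold change was -0.18 (SE 0.10, adjusted p = 0.457 with edgeR). Inpp5d had FPKM of 8.57, 8.43, 7.52, 8.06 and 6.17 in EA 1 to EA 5, against 8.75, 9.44, 8.24, 9.10 and 7.95 in control 1 to control 5. EA 5 was lowest, the groups overlapped, and the log2 fold change was -0.14 (SE 0.09, adjusted p = 0.499 with edgeR).

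Plcg2, which was taken from the list of partners and is no member, had FPKM of 0.897, 1.01, 0.925, 1.03 and 1.10 in EA 1 to EA 5, against 1.16, 1.34, 1.33, 1.32 and 1.25 in control 1 to control 5. All EA libraries lay below all controls, with a log2 fold change of -0.34 (SE 0.11, unadjusted p = 0.0075, adjusted p = 0.223 with edgeR), which did not pass the correction. Apoe, a lipoprotein made mainly by astrocytes that Trem2 binds, averaged 1783 FPKM (SD 145) in EA and 1996 (SD 143) in control, with a log2 fold change of -0.14 (adjusted p = 0.386 with edgeR).

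**Figure D3:**
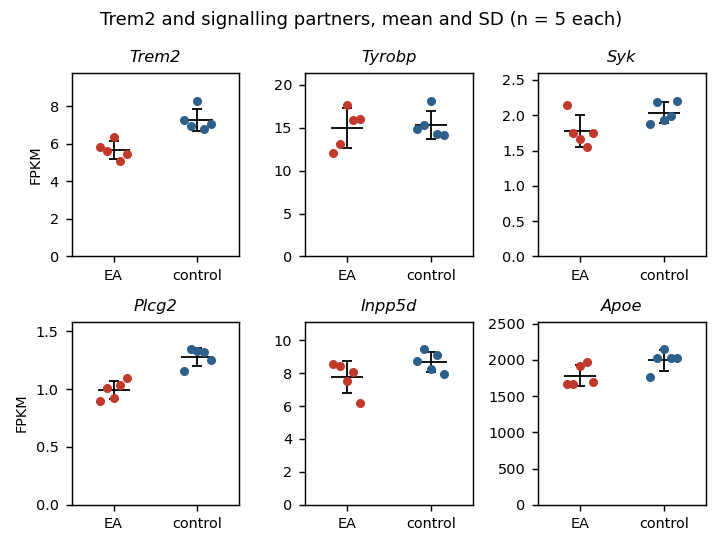
FPKM of Trem2, its adaptor Tyrobp, the enzymes Syk, Plcg2 and Inpp5d, and the lipoprotein Apoe in single cortices, EA on the left and control on the right (points: libraries, bars: mean and SD, n = 5 each). EA and control do not overlap for Trem2 (5.09 to 6.37 against 6.77 to 8.28) and Plcg2, and overlap for Tyrobp, Syk, Inpp5d and Apoe.

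Markers of some other cell types also lay lower in EA, with 0 called by edgeR or DESeq2, and their part in the level of Trem2 was not tested. All 7 oligodendrocyte markers and all 5 endothelial markers tested had log2 fold changes below 0, with medians of -0.13 and -0.22, and the myelin gene Mbp (-0.31) and the endothelial receptor Flt1 (-0.22) had the lowest p of the 2 lists. The summed FPKM of oligodendrocyte markers was 864 to 1119 in EA and 979 to 1423 in control, and that of endothelial markers was 52.1 to 55.5 in EA and 56.0 to 71.1 in control. Red blood cell markers, which include the globin Hbb (log2 fold change -1.28), summed to 6.30 to 15.9 in EA and 7.68 to 43.0 in control. With edgeR, 3 of 7 oligodendrocyte, 2 of 5 endothelial and 2 of 3 red cell markers lay lower at an unadjusted p under 0.05. Among all genes tested 7.15% did so. Of 7 neuron markers 6 lay above 0 and 1 below, with 1 higher at that p, against 6.59% of all genes.

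Of the 11 genes of activation and phagocytosis, Trem2 included, 6 had log2 fold changes above 0 and 5 below, with a median of 0.02, and 0 were called with edgeR or DESeq2. The summed FPKM was 258 to 318 in EA (median 276) and 270 to 313 in control (median 285), so the range of EA enclosed that of control. The sign of the median depends on single libraries, and it was -0.06 without EA 3 and 0.08 without EA 1. Genes of this group were also high in control cortex, where Ctss (mean FPKM 126) and C1qa (42.1) exceeded Csf1r (37.0), the highest homeostatic gene. The group name is a label, and activation itself was not measured.

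The complement chains C1qa, C1qb and C1qc form the C1q protein that tags synapses and debris, and they lie side by side on the minus strand of chromosome 5 (Rnor_6.0, 155246447 to 155264143 from C1qb to C1qa). C1qa had FPKM of 34.0, 39.4, 43.2, 48.6 and 33.9 in EA 1 to EA 5, against 43.6, 42.1, 47.7, 35.4 and 41.7 in control 1 to control 5. C1qb had FPKM of 27.8, 32.7, 42.2, 41.2 and 33.0 in EA 1 to EA 5, against 32.2, 37.4, 37.8, 33.9 and 36.2 in control 1 to control 5. C1qc had FPKM of 14.5, 18.7, 24.5, 21.9 and 18.6 in EA 1 to EA 5, against 15.3, 19.4, 22.7, 21.4 and 19.7 in control 1 to control 5. Among EA rats EA 3 and EA 4 were high for all 3 chains, EA 1 was lowest for C1qb and C1qc, and the coefficients of variation in EA (15.8%, 17.3% and 19.3%) exceeded those in control (10.5%, 6.74% and 14.1%). Log2 fold changes were -0.06, 0.02 and 0.02, with standard errors of 0.11, 0.11 and 0.14.

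Itgam (CD11b), the integrin chain of the complement receptor that takes up tagged targets, had the largest positive log2 fold change of the members. Its FPKM was 1.24, 1.60, 2.11, 1.28 and 1.82 in EA 1 to EA 5, against 1.25, 1.03, 1.21, 1.31 and 1.68 in control 1 to control 5. EA 3 and EA 5 were highest, EA 1, EA 2 and EA 4 lay within the range of the controls, and control 5 lay among EA. The log2 fold change was 0.34 (SE 0.17, adjusted p = 0.41 with edgeR), and it was 0.21 without EA 3. The annotated span of Itgam on chromosome 1 (Rnor_6.0, 199495298 to 199623960, plus strand) takes in that of its relative Itgax on the same strand, so some reads could be assigned to either. Itgb2, the chain that pairs with Itgam, had 2.29 to 3.12 FPKM in EA and 1.93 to 2.95 in control, with a log2 fold change of 0.07.

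Ctss, a lysosomal protease that processes antigens, was the most abundant member. Its FPKM was 122, 126, 139, 132 and 124 in EA 1 to EA 5, against 116, 128, 133, 130 and 122 in control 1 to control 5. The groups overlapped, with a log2 fold change of 0.06 and a fold interval of 0.959 to 1.13 times control. Cd68, a lysosomal protein used as a marker of phagocytosis, had FPKM of 1.45, 1.13, 1.42, 2.00 and 1.45 in EA 1 to EA 5, against 1.29, 1.43, 1.33, 0.945 and 1.95 in control 1 to control 5. EA 4 and control 5 were both high, and its interval was among the widest of the list (0.779 to 1.51 times control), with coefficients of variation of 21.3% in EA and 26.0% in control.

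Aif1 (Iba1), the actin-binding protein used to stain microglia, had FPKM of 9.71, 7.74, 10.1, 7.84 and 9.13 in EA 1 to EA 5, against 8.55, 9.24, 10.1, 9.81 and 8.93 in control 1 to control 5. EA 2 and EA 4 lay below every control, the other EA libraries did not, and the log2 fold change was -0.04 (SE 0.09). Fcer1g, an adaptor of antibody receptors, was the steadiest member, with coefficients of variation of 4.36% in EA and 3.21% in control and a log2 fold change of -0.01. Ly86, a partner of a Toll-like receptor relative, was the most variable in EA (27.7%, against 24.5% in control), with a log2 fold change of 0.34 (SE 0.24, adjusted p = 0.574 with edgeR).

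The leukocyte signalling genes gave a median log2 fold change of -0.08, with 6 of 9 below 0, and 0 were called or lay at an unadjusted p under 0.05 with edgeR, nor were any called with DESeq2. Cyth4, an exchange factor for Arf GTPases, had FPKM of 5.04, 4.91, 5.98, 5.27 and 4.97 in EA 1 to EA 5, against 6.03, 7.27, 5.57, 5.76 and 5.69 in control 1 to control 5. All EA libraries but EA 3 lay below the controls, and the log2 fold change was -0.19 (SE 0.09, adjusted p = 0.409 with edgeR). Besides Syk and Inpp5d, described above, the kinase Lyn had a log2 fold change of -0.12, the receptor Csf3r for granulocyte colony-stimulating factor of -0.08, and the integrin regulator Apbb1ip of -0.03. The leukocyte phosphatase Ptprc (CD45) had a log2 fold change of 0.11, the tetraspanin Cd53 of 0.03 and the lysosomal protein Laptm5 of 0.01. Standard errors of these 6 genes ran from 0.09 to 0.15.

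The library that held the highest or lowest level varied from member to member. EA 3 held the highest FPKM of the 10 libraries for 7 members and the lowest for 4 (Gpr34, P2ry12, P2ry13 and Lyn), and control 3 the highest for 9 and the lowest for 1. EA 1 and EA 2 held the highest for 0 and the lowest for 7 and 6. The mean of the members on the log2 scale, centred on each gene, was 0.14 in EA 3 and 0.11 in control 3, -0.11 in EA 1 and -0.10 in EA 2. In EA 3 the activation genes averaged 0.25 and the homeostatic genes 0.0032. The mean of the activation genes less that of the homeostatic genes, on the same scale, was -0.05, -0.08, 0.25, 0.10 and 0.07 in EA 1 to EA 5, against -0.09, -0.16, 0.04, -0.18 and 0.09 in control 1 to control 5. The ranges overlapped, EA 3 was the highest and control 4 the lowest. This difference compares 2 lists of genes and was not tested as a measure of activation.

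**Figure D4:**
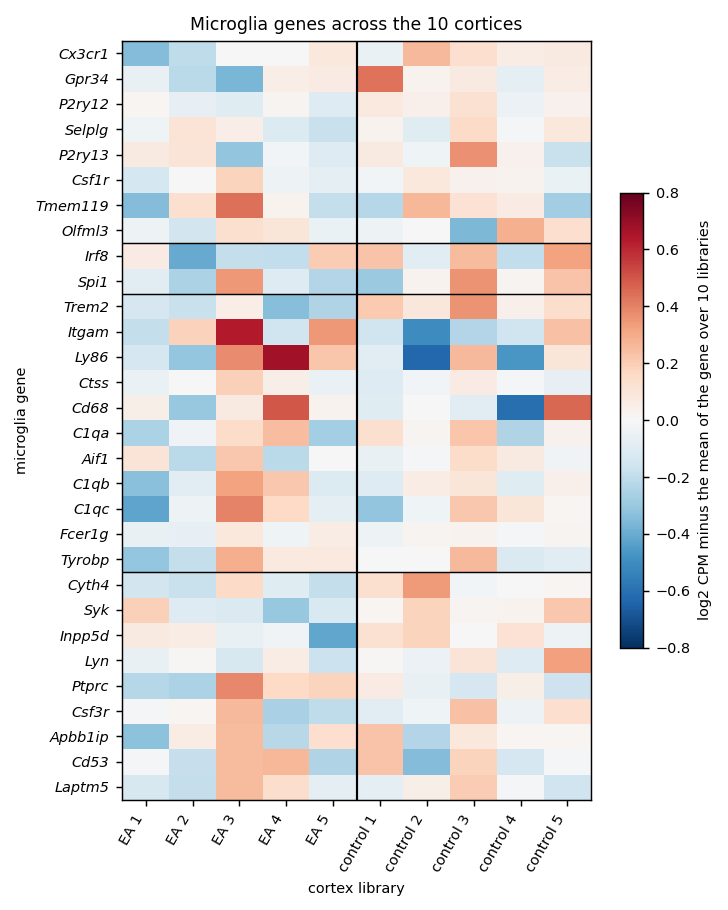
Log2 CPM of each microglia gene in each library, less the mean of that gene over the 10 libraries (red above, blue below), with EA on the left of the vertical line, control on the right, and horizontal lines between the 4 groups of genes. EA 3 and control 3 are the reddest columns (means of 0.14 and 0.11), and EA 1 and EA 2 the bluest (-0.11 and -0.10).

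Further microglial genes outside the list were read in the same way, and 0 were called with edgeR. Which cells of the cortex held these transcripts was not tested. Among 16 other homeostatic genes, 12 had log2 fold changes below 0 and 3 of these lay at an unadjusted p under 0.05, where 7.15% of all genes tested did so in that direction. Slco2b1, an organic anion transporter of microglia and endothelium, had 9.73 to 11.3 FPKM in EA and 12.2 to 14.0 in control, with a log2 fold change of -0.27 (SE 0.06, adjusted p = 0.172 with edgeR, 0.0111 with DESeq2). The study, which used DESeq2, reported Slco2b1 as significantly lower in EA. Cd33, a sialic acid receptor that restrains phagocytosis, had a log2 fold change of -0.39 (SE 0.16, adjusted p = 0.317 with edgeR), and the secreted ribonuclease Rnase4 of -0.38 (SE 0.17, adjusted p = 0.36 with edgeR). DESeq2 called Slco2b1 but not Cd33 or Rnase4. Sall1, a transcription factor of microglial identity, had a log2 fold change of -0.13 (SE 0.07).

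Genes known to rise in disease-associated microglia had a median near that of all genes. Of 16 genes 13 were tested, among them Apoe, which is made mainly by astrocytes. Fth1 (mean FPKM 1321 in EA and 1377 in control) and Ctsb (221 in both) also lay above every member. The libraries are whole cortex, so the median of these genes does not describe microglia alone. The median of the 13 was -0.05 on the log2 scale, and 0 were called with edgeR or DESeq2, while 1 lay at an unadjusted p under 0.05. This was Axl, a receptor for dying cells, with 14.3 to 16.4 FPKM in EA and 16.5 to 18.2 in control and a log2 fold change of -0.12 (SE 0.05, adjusted p = 0.33 with edgeR). Gpnmb, a glycoprotein of lipid-laden phagocytes, had a log2 fold change of -0.18 (SE 0.11). Cst7, an inhibitor of lysosomal proteases that marks this state in mice, had 0 counts in all 10 libraries, which does not show that it was absent. Clec7a had 8, 16, 0, 12 and 8 counts in EA 1 to EA 5, against 0, 0, 4, 0 and 15 in control 1 to control 5. Cst7, Clec7a and Itgax did not pass the expression filter, and the counts of Itgax are given under the other observations.

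Several inflammatory mediators were at or near 0 in both groups. The cytokine Il1b had 0, 0, 8, 12 and 0 counts in EA 1 to EA 5, against 4, 4, 0, 0 and 13 in control 1 to control 5, and Tnf had 0 to 6 counts in EA and 0 to 8 in control. Il6 had 0 to 24 counts in EA and 0 to 14 in control, and the inducible nitric oxide synthase Nos2 had 0 counts in every EA library and 0 to 6 in control. No fold is given at these counts. Of the 22 inflammatory genes 13 passed the filter, with a median log2 fold change of -0.17, against -0.0018 over all genes tested. Of the 13, 8 lay below 0 and 5 above. With edgeR 1 lay at an unadjusted p under 0.05, in the lower direction, as did 7.15% of all genes tested. The summed FPKM of the 22 was 54.2 to 66.6 in EA and 57.6 to 64.9 in control. Cyba, a subunit of the NADPH oxidase, had 3.67 to 4.83 FPKM in EA and 5.49 to 7.43 in control, with a log2 fold change of -0.58 (SE 0.12, adjusted p = 0.172 with edgeR, 0.0111 with DESeq2). The study, which used DESeq2, lists Cyba among its differentially expressed genes. Cybb, the partner of Cyba, is unlike it largely restricted to phagocytes and had a log2 fold change of -0.05 (SE 0.21). Ptgs2, a prostaglandin synthase of neurons and myeloid cells, had a log2 fold change of 0.20 (SE 0.10) and the protease Casp1 of -0.45 (SE 0.23), with adjusted p of 0.399 and 0.409 from edgeR.

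Ligands that sustain microglia had ranges that overlapped between EA and control. Il34 and Csf1, which both bind Csf1r, had log2 fold changes of 0.09 and 0.15, with 12.3 to 16.3 FPKM in EA and 12.3 to 16.02 in control for Il34, and 2.21 to 3.64 in EA and 2.41 to 3.09 in control for Csf1. Cx3cl1, the ligand of Cx3cr1, had 159 to 227 FPKM in EA and 174 to 209 in control. The remaining partners named by the rule were the transcription factor Runx1, with a log2 fold change of -0.46 (SE 0.26), and the adaptor Fyb1, with 0.39 (SE 0.20), and neither passed (adjusted p = 0.463 and 0.424 with edgeR).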

How the data were processed

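Cortical poly(A) RNA from 5 EA and 5 control rats was sequenced by the authors as stranded paired reads, aligned with HISAT2 to Rnor_6.0 and assembled with StringTie. Versions in the submitters' processing notes are StringTie 1.3.0, HISAT2 2.0 and Bowtie 0.12.2. The authors used ballgown for the FPKM values, and a deposited 0.0001 was read as 0. The same table holds estimated counts, deposited as whole numbers, and the step that made them is not given in the sources used here.

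Counts were tested with edgeR 4.0.16 (TMM scaling) in R 4.3.3, with DESeq2 1.42.0, limma 3.58.1 on log2(FPKM + 0.1) and log2(FPKM + 1), other scalings and filters, a replicate block and the omission of libraries as alternatives. Standard errors are the log2 fold change over the root of F, and intervals use the degrees of freedom of the fit. The fits were also run on simulated counts with planted changes, where only the direction of changes of 2-fold or more was required to come back. That requirement did not cover changes as small as those of the members. Defining members and the 8 with the lowest p are given in every library, and of each further list the 3 with the lowest p. Other genes named from those lists, such as Cybb, Sall1 and Itgb2, were chosen after their values were seen. The members and lists were chosen with earlier results of these data known.

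Separate rats are taken from the replicate numbers, so p-values measure the spread between these libraries. No pair of libraries agreed within sampling noise (chi-square per degree of freedom of at least 23.5 over 45 pairs). Promoter sequences are from RefSeq (GRCr8). Figures were drawn with matplotlib 3.10.9 in Python 3.11.15.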

Additional observations from a re-analysis of the deposited data

Results flagged for a closer look

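Within groups of 5, the 30 members gave 60 sets of values, of which 4 held a library whose gap to its nearest neighbour took up most of the range (Dixon's ratio above 0.71). Chance alone flags about 1 set in 20. Gpr34 had an FPKM of 14.5 in control 1, with the next control at 11.5. Spi1 had 2.39 in EA 3, with the next EA library at 1.83. Fcer1g had 28.1 in control 1, with the next control at 29.9, and Cyth4 had 7.27 in control 2, with the next control at 6.03.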

How the results depend on the processing

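Over 20 alternatives 0 members were called, and the median log2 fold change ran from -0.10 to -0.05 for the homeostatic genes, from -0.06 to 0.08 for the activation genes and from -0.08 to -0.004 for all members. Calls over all genes numbered 3 with edgeR, 168 with DESeq2 and 0 with the replicate block, and 1 to 5 when 1 library was left out (1 without EA 5 or control 5, 5 without EA 3). Members at an unadjusted p under 0.05 numbered 2 with DESeq2, 3 with limma at either pseudocount, 2 with the replicate block and 1 to 3 when 1 library was left out (3 without EA 1, adding Itgam and Syk). The replicate numbers did not pair the samples (correlations of same-numbered libraries -0.01 to 0.06, with 1 of 5 correlating best with its own number), and the block changed no other call.

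Among values of single genes under alternatives, 593 kept direction and side of the threshold and 25 changed direction. Cyba and Slco2b1 were called with DESeq2 alone (log2 fold changes -0.58 and -0.26). Without EA 2 and EA 5 Aif1 had 0.020, C1qa 0.026 and Tyrobp 0.026. With limma C1qb had -0.021 and -0.020 and C1qc -0.014 and -0.013 (pseudocounts 0.1 and 1). Leaving out 1 library gave -0.080 to 0.12 for Tmem119, -0.072 to 0.0049 for Csf1r, -0.10 to 0.0057 for Aif1, -0.13 to 0.0028 for C1qa, -0.063 to 0.10 for C1qb, -0.080 to 0.12 for C1qc, -0.089 to 0.057 for Tyrobp and -0.0047 to 0.27 for Cd68. On TMM-scaled CPM, chosen after seeing the data, 0 members had all EA below all control. Cd68 and Ly86 had the fewest counts of the members (68 to 162 in a library) and the largest standard errors (0.22 and 0.24), and the part of depth in these was not tested. Of the named genes only Rnase4 has several rows, which overlap on 1 strand, and its other row did not pass the filter, so that alternative gave no value.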

Other observations

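Itgax (CD11c), an integrin chain of activated microglia and dendritic cells, did not pass the expression filter and was chosen after its values were seen. It had 12, 19, 19, 20 and 25 counts in EA 1 to EA 5, against 4, 0, 8, 4 and 4 in control 1 to control 5, so all EA libraries lay above all controls. Of all 7142 genes with a count that did not pass the filter, 0.126% had all EA above all control in counts, which a gene at 0 in libraries of both groups cannot have. In edgeR over every gene with a count Itgax did not pass the correction (unadjusted p = 0.00995, adjusted p = 0.322), and no fold is given at these counts. The span of Itgax lies within that of Itgam on the same strand, and how reads were divided between the 2 genes is not given in the sources used here.

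Macrophages of the brain borders, which share most microglia genes, were measured by their own markers. Of 7 tested, 5 had log2 fold changes above 0 and 0 lay at an unadjusted p under 0.05 or were called with edgeR, and DESeq2 called 0. Mrc1, a mannose receptor, had 1.63 to 3.49 FPKM in EA and 1.62 to 2.86 in control, and Cd163, a receptor for hemoglobin complexes, 0.511 to 1.06 in EA and 0.51 to 0.953 in control. The 8 markers summed to 8.46 to 11.8 FPKM in EA and 7.62 to 11.4 in control. Of 9 blood leukocyte markers that were measured, 1 passed the filter. The B cell gene Cd79b and the lymphocyte gene Nkg7 had 0 counts in all 10 libraries, which does not show that they were absent.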
